A study of Homo sapiens with 8 samples.

Results

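The genes described here belong to plasminogen activation and the neighbouring coagulation reactions and were followed in BJ-HRAS fibroblasts: PLAT, PLAU, PLAUR, SERPINE2, SERPINB2, F3, THBD and TFPI2. These 8 genes were taken by symbol from a table of 58825 genes, and all 8 were found. BJ is a skin fibroblast line, and BJ-HRAS is the name that the labels give its derivative. The 8 libraries came from SNORA13 knockout (KO) clones 66 and 69 and wild-type (WT) clones 15 and 54. Each clone was sampled with 100 nM (Z)-4-hydroxytamoxifen (4-OHT) for 7 days and without it, which gives 4 groups of 2 libraries: KO with 4-OHT, KO without 4-OHT, WT with 4-OHT and WT without 4-OHT. All groups carry the HRAS background, and the labels do not describe its construct. In fibroblast lines of this kind 4-OHT is commonly used to switch on an HRAS protein fused to an oestrogen receptor domain. 4-OHT is also an oestrogen receptor ligand, and no line without HRAS was among these libraries, so effects of HRAS and of 4-OHT itself cannot be told apart. Each genotype is represented by 2 clones. A KO minus WT difference therefore holds whatever else sets these clones apart. P-values rest on the spread between the 2 clones of a group, pooled over the 4 groups and drawn towards a trend over all tested genes. The main fit does not pair the 2 libraries of a clone. Each clone has a single library per condition, so spread between clones and between libraries cannot be told apart.

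Plasmin, cut from plasminogen by an activator, degrades fibrin and also acts on matrix proteins and on precursors of matrix proteases and growth factors. PLAT encodes tissue-type and PLAU urokinase-type plasminogen activator, and PLAUR encodes the receptor that holds urokinase at the cell surface. SERPINE2 (protease nexin 1) and SERPINB2 (plasminogen activator inhibitor 2) are serpins, which trap such proteases. F3 is tissue factor, the receptor that starts coagulation, THBD is thrombomodulin, which redirects thrombin to protein C, and TFPI2 is a matrix-bound Kunitz inhibitor of plasmin and other serine proteases. Senescent fibroblasts and fibroblasts with active RAS are known to secrete components of this system.

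Sequence upstream of the genes is shown for those members whose promoter window held the AP-1 letters TGANTCA, since AP-1 (FOS and JUN dimers) is a well-known target of the RAS pathway. The windows were taken from RefSeq on GRCh38.p14 and run from 250 bases before to 50 after a transcription start, 300 bases in all. Windows of 6 members were used, 8 windows in all, of which PLAU and SERPINE2 had 2 each. PLAT and THBD were left out of this set and were not searched, so the counts of windows below do not cover them. TGANTCA was searched on both strands; TGAGTCA is a subset of it. Each stretch is written 5′ to 3′ on the strand of the gene, with capitals marking the match.
F3 chr1:94541933-94542009 (minus strand): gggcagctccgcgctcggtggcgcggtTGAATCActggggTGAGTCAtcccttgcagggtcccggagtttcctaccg
PLAUR chr19:43670319-43670385 (minus strand): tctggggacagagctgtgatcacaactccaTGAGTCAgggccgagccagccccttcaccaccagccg
SERPINB2 chr18:63887573-63887639 (plus strand): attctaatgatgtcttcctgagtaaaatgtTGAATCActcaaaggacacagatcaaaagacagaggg
TFPI2 chr7:93890804-93890870 (minus strand): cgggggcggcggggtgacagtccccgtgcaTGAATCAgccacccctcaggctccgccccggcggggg
In F3 the matches lay 223 to 217 and 210 to 204 bases before the start. The matches lay 186 to 180 bases before the start in PLAUR, 102 to 96 in SERPINB2 and 87 to 81 in TFPI2. Thus 4 of the 8 windows, 1 each of 4 members, held TGANTCA, as did 7.71% of all 35116 windows. F3 and PLAUR held TGAGTCA, as did 4.95% of all windows. No window of PLAU or SERPINE2 held either. The letters describe these windows and show no binding.

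The libraries held 22.06 to 24.91 M reads. Across genes, log2 values correlated at r = 0.9836 to 0.992 between clones within groups. SNORA13 itself, a small nucleolar RNA, had 0 reads in each of the 4 KO libraries, with 3 reads as the limit that a count of 0 allows. It had 5 and 7 reads in WT clones 15 and 54 with 4-OHT and 6 and 4 reads in the same clones without it. Signal recognition particle RNA took 9.184 to 16.1% of the reads, most in both KO clones with 4-OHT and in WT clone 54 with 4-OHT. Levels are in RPKM (reads divided by transcript length and by the reads of the library) after trimmed-mean (TMM) scaling. Of the 8 genes, 7 passed the filter on low values and THBD did not. Differences are log2(RPKM + 0.1) differences ± their standard error from limma, which understate changes of low genes. A gene was called at a Benjamini-Hochberg adjusted p under 0.05 over the 16543 genes tested.

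With 4-OHT the activators, the urokinase receptor and both serpins rose in both genotypes. The coagulation gene F3 fell in KO clones and stood at the threshold in WT clones, and TFPI2, on few reads, was lower with 4-OHT in each clone. In KO clones 5 of the 7 tested genes were called higher and 2 lower with 4-OHT, against 28.7% and 26.9% of all tested genes. In WT clones 5 were called higher and 1 lower, against 25.2% and 23.7% of all tested genes. The median log2 difference of the 7 was 1.49 in KO and 1.37 in WT clones, beside 0.00 and 0.00 over all tested genes. TFPI2 passed the filter through the libraries without 4-OHT, where it was higher, so its difference between conditions and these summaries are a description only. The members, and the gene lists used below, were also chosen with earlier results of these data known. Their counts beside the shares of all tested genes are therefore a description throughout. Genotype differences were fewer. With 4-OHT, PLAT and F3 were lower in KO than in WT clones and none was higher, beside 7.65% lower and 6.7% higher over all tested genes. Without 4-OHT, PLAT was lower and F3 higher in KO clones, beside 3.74% lower and 2.58% higher over all tested genes. The comparisons share libraries and are not independent of each other. In bulk RNA fewer expressing cells and less RNA per cell cannot be told apart.

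**Figure D1:**
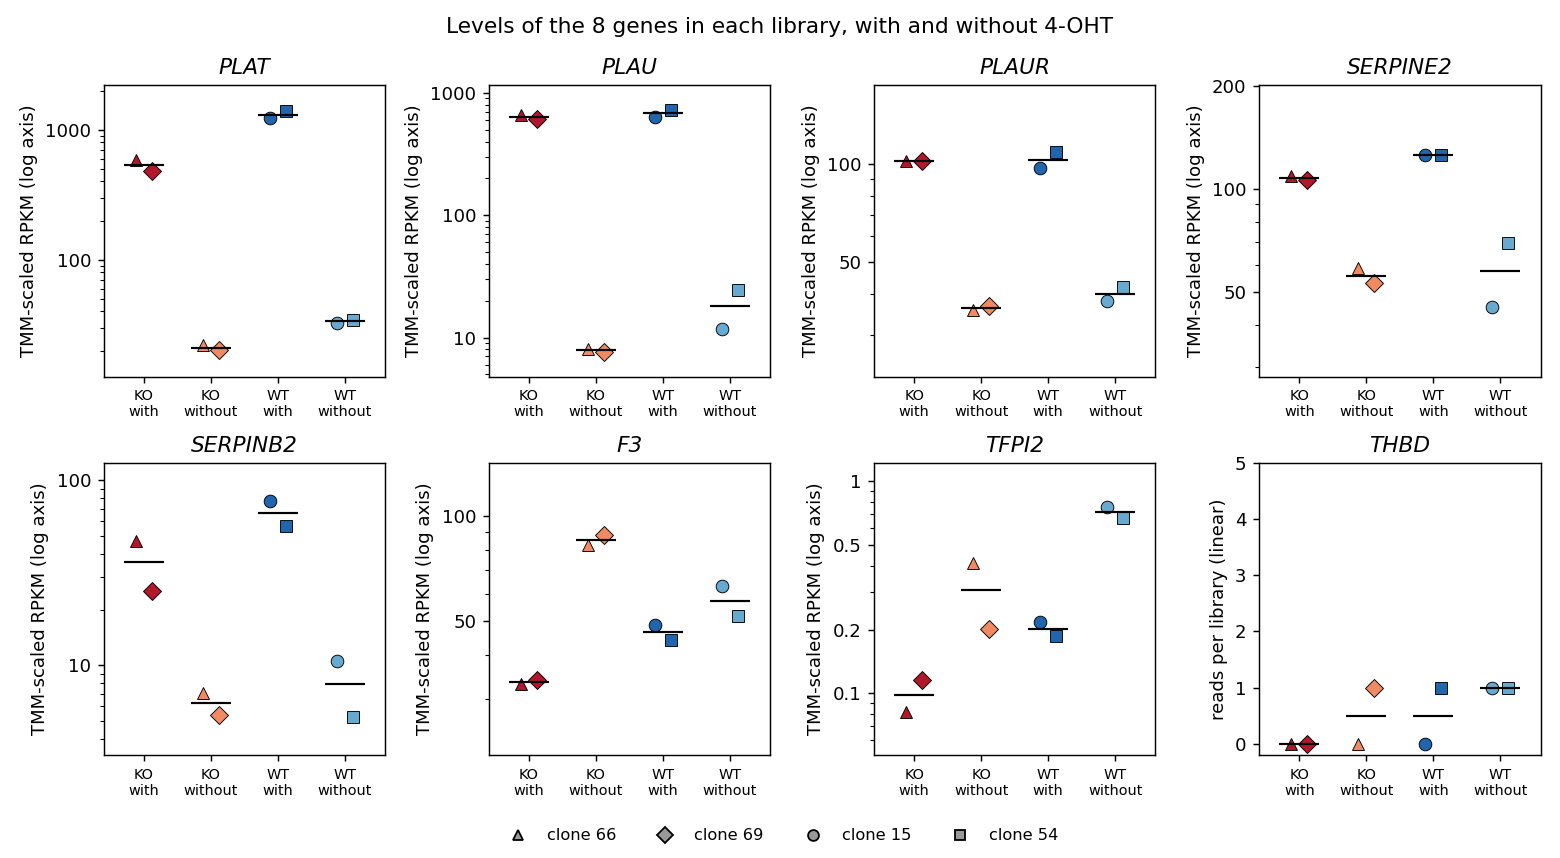
TMM-scaled RPKM of each gene in each library (log axis, with reads per library on a linear axis for THBD), by group, with clones as symbols and bars at the mean of 2 clones. PLAT is at 589 and 480 RPKM in KO clones with 4-OHT and at 1230 and 1380 RPKM in WT clones with 4-OHT, while F3 is lowest in KO clones with 4-OHT, at 33.2 and 34 RPKM.

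PLAT (GRCh38, chromosome 8, 42175233 to 42207724, minus strand) reached the highest level of the 8 genes, in WT clones with 4-OHT. It stood at 589 and 480 RPKM in KO clones 66 and 69 with 4-OHT, against 21.9 and 20.2 RPKM in the same clones without it. In WT clones 15 and 54 it stood at 1230 and 1380 RPKM with 4-OHT, against 32.5 and 34.6 RPKM without it. All 4 groups were apart, with WT above KO under either condition. Among all tested genes, PLAT ranked 117 with 4-OHT and 2939 without it in KO clones, and 35 and 1942 in WT clones. The response was 25.2-fold in KO clones (log2 4.65 ± 0.11, adjusted p = 8e-07) and 38.8-fold in WT clones (log2 5.28 ± 0.11, adjusted p = 1.02e-06).

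The PLAT level in KO clones was 2.45-fold lower than in WT clones with 4-OHT (log2 -1.30 ± 0.11, adjusted p = 0.00301). It was 1.59-fold lower without 4-OHT (log2 -0.67 ± 0.11, adjusted p = 0.0218). That second call was lost without KO clone 66 (adjusted p = 0.109), KO clone 69 (0.159) or WT clone 54 (0.0715), each in its library without 4-OHT. It was also lost with no filter on low values (0.0654) and when the fit held the compared libraries alone (0.0538). The response itself was smaller in KO by 0.62 on the log2 scale (-0.62 ± 0.16, 95% interval -1.00 to -0.25), which was not called (adjusted p = 0.0626). With clone as a replicate block, which pairs the libraries of a clone, it was called (adjusted p = 0.0323).

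PLAU (GRCh38, chromosome 10, 73909177 to 73917497, plus strand) had the largest fold response of the 8 genes in KO clones. It stood at 660 and 608 RPKM in KO clones 66 and 69 with 4-OHT, against 8.13 and 7.67 RPKM without it. WT clones 15 and 54 held 635 and 725 RPKM with 4-OHT, against 11.8 and 24.4 RPKM without it. With 4-OHT the genotypes overlapped, and without it both KO clones lay below both WT clones, which were themselves far apart. Within single clones the ratio of the level with 4-OHT over the level without it was 81.2 and 79.3 in KO clones 66 and 69 and 53.8 and 29.7 in WT clones 15 and 54. The fitted response was 79.2-fold in KO clones (log2 6.31 ± 0.29, adjusted p = 6.99e-06) and 39.8-fold in WT clones (log2 5.31 ± 0.29, adjusted p = 1.66e-05).

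The PLAU difference between KO and WT clones was not called under either condition. With 4-OHT it was -0.10 ± 0.29 on the log2 scale (95% interval -0.77 to 0.57, adjusted p = 0.855). Without 4-OHT it was -1.09 ± 0.29 (95% interval -1.76 to -0.42, adjusted p = 0.067). Leaving out WT clone 15 without 4-OHT gave -1.62 (adjusted p = 0.00213), and leaving out WT clone 54 without 4-OHT gave -0.57 (adjusted p = 0.0488). The responses differed by 0.99 ± 0.40 (KO minus WT, 95% interval 0.05 to 1.94, adjusted p = 0.18). They differed by 1.52 without WT clone 15 without 4-OHT and by 0.47 without WT clone 54 without 4-OHT. The PLAU results between genotypes thus moved with the WT clones without 4-OHT.

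The balance of the activators set KO clones with 4-OHT apart from the other groups. PLAT and PLAU together took 0.322% and 0.29% of the reads in KO clones 66 and 69 with 4-OHT (Wilson 95% intervals 0.32 to 0.324% and 0.287 to 0.292%). In the same clones without 4-OHT they took 0.00826% (0.0079 to 0.00863%) and 0.00763% (0.00729 to 0.00799%). Their share in WT clones 15 and 54 was 0.506% (0.504 to 0.509%) and 0.534% (0.531 to 0.537%) with 4-OHT, against 0.0122% (0.0118 to 0.0127%) and 0.0164% (0.0159 to 0.017%) without it. These intervals cover counting error only. On RPKM, PLAT was below PLAU in KO clones with 4-OHT, at ratios of 0.892 and 0.789. The ratio of PLAT to PLAU was 2.69 and 2.63 in KO clones without 4-OHT, 1.94 and 1.91 in WT clones with 4-OHT, and 2.76 and 1.42 in WT clones without 4-OHT. KO clones with 4-OHT were thus the one group in which PLAU exceeded PLAT. The ratio was not tested.

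**Figure D2:**
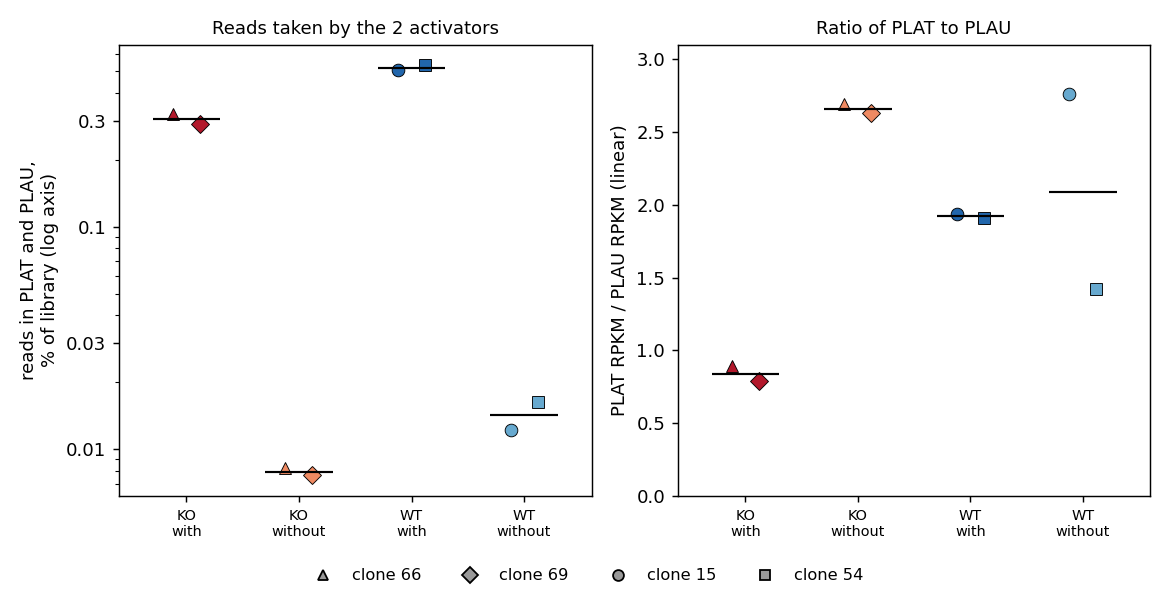
Left, the share of each library's reads in PLAT and PLAU (%, log axis). Right, the ratio of PLAT RPKM to PLAU RPKM (linear axis from 0), by group, with clones as symbols and bars at the mean of 2 clones. The ratio is 0.892 and 0.789 in KO clones with 4-OHT and above 1 in every other library, the lowest of those being 1.42.

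PLAUR (GRCh38, chromosome 19, 43646095 to 43670547, minus strand), the receptor, rose in both genotypes. It stood at 102 and 102 RPKM in KO clones 66 and 69 with 4-OHT, against 35.8 and 36.9 RPKM without it. WT clones 15 and 54 held 97.1 and 109 RPKM with 4-OHT, against 38 and 41.9 RPKM without it. The genotypes overlapped with 4-OHT, and without it the KO clones lay just below the WT clones. The response was 2.81-fold in KO clones (log2 1.49 ± 0.08, adjusted p = 1.38e-05) and 2.58-fold in WT clones (log2 1.37 ± 0.08, adjusted p = 2.65e-05). The responses differed by 0.12 ± 0.12 (95% interval -0.16 to 0.40, adjusted p = 0.57). KO minus WT was -0.01 ± 0.08 with 4-OHT (95% interval -0.21 to 0.18, adjusted p = 0.94) and -0.13 ± 0.08 without it (95% interval -0.33 to 0.06, adjusted p = 0.362). The ratio of PLAU to PLAUR RPKM was 6.45 and 5.97 in KO clones with 4-OHT, against 0.227 and 0.208 without it. In WT clones it was 6.54 and 6.63 with 4-OHT, against 0.311 and 0.583 without it. In all 4 clones the urokinase message was thus below that of its receptor without 4-OHT and above it with 4-OHT.

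SERPINE2 (GRCh38, chromosome 2, 223975112 to 224039319, minus strand), an inhibitor of thrombin and of both activators, rose less than the activators. It stood at 109 and 106 RPKM in KO clones 66 and 69 with 4-OHT, against 58.5 and 52.9 RPKM without it. In WT clones 15 and 54 it stood at 126 and 126 RPKM with 4-OHT, against 45.1 and 69.5 RPKM without it. With 4-OHT both KO clones lay below both WT clones, and without it the KO clones lay between the WT clones. The response was 1.94-fold in KO clones (log2 0.95 ± 0.18, adjusted p = 0.0029) and 2.26-fold in WT clones (log2 1.17 ± 0.18, adjusted p = 0.00137). KO minus WT was -0.23 ± 0.18 with 4-OHT (95% interval -0.65 to 0.19, adjusted p = 0.427) and -0.01 ± 0.18 without it (adjusted p = 0.982). The responses differed by -0.22 ± 0.25 (95% interval -0.81 to 0.37, adjusted p = 0.628). That difference turned direction with the WT clone left out, being -0.53 without WT clone 54 without 4-OHT and 0.09 without WT clone 15 without 4-OHT. The summed RPKM of PLAT and PLAU was 11.4 and 10.2 times that of SERPINE2 in KO clones with 4-OHT, against 0.513 and 0.527 times without it. In WT clones it was 14.7 and 16.7 times with 4-OHT, against 0.982 and 0.849 times without it.

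SERPINB2 (GRCh38, chromosome 18, 63871692 to 63903890, plus strand), a largely intracellular inhibitor of urokinase, rose in every clone from low levels. It stood at 47.1 and 25.3 RPKM in KO clones 66 and 69 with 4-OHT, against 7.1 and 5.37 RPKM without it, which were 747, 428, 123 and 95 reads. In WT clones 15 and 54 it stood at 77.1 and 56.3 RPKM with 4-OHT, against 10.5 and 5.25 RPKM without it, which were 1390, 887, 180 and 86 reads. With 4-OHT both KO clones lay below both WT clones, and the clones of either genotype were far apart. The response was 5.52-fold in KO clones (log2 2.47 ± 0.39, adjusted p = 0.00129) and 8.75-fold in WT clones (log2 3.13 ± 0.39, adjusted p = 0.000548). KO minus WT with 4-OHT was -0.93 ± 0.39 (95% interval -1.84 to -0.02) and was not called (adjusted p = 0.158). KO minus WT without 4-OHT was -0.27 ± 0.39 (95% interval -1.17 to 0.64, adjusted p = 0.709). The responses differed by -0.66 ± 0.55 (95% interval -1.95 to 0.62, adjusted p = 0.496).

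**Figure D3:**
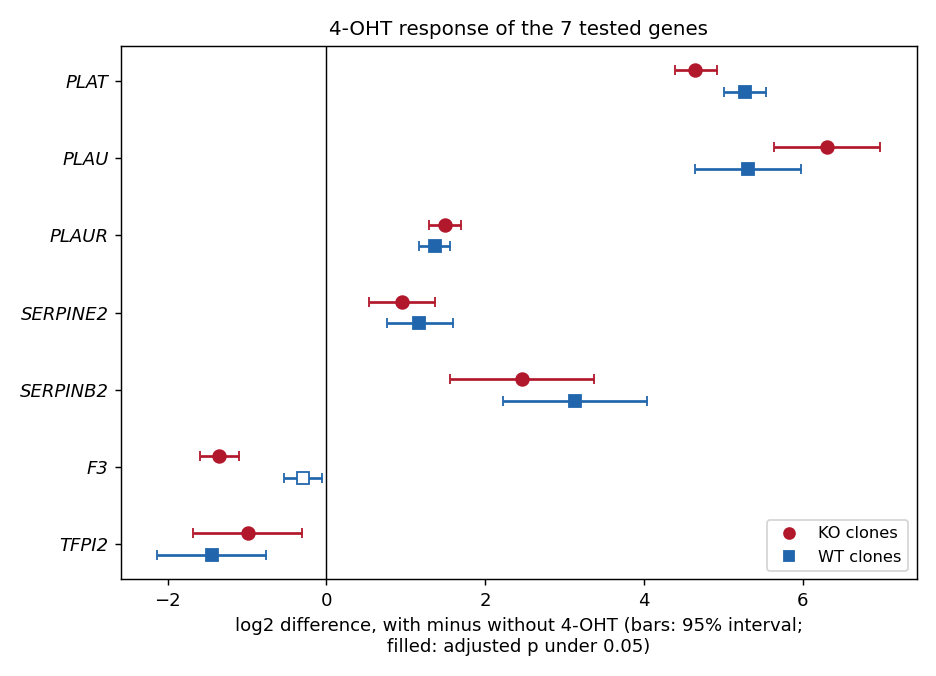
The 4-OHT response of each tested gene (log2 difference, with minus without 4-OHT) in KO clones (red circles) and WT clones (blue squares), with 95% intervals and filled symbols at an adjusted p under 0.05. The activators lie between 4.65 and 6.31, and the F3 response is -1.35 in KO clones and -0.30 in WT clones.

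F3 (GRCh38, chromosome 1, 94529225 to 94541800, minus strand), tissue factor, was the only 1 of the 7 tested genes whose responses were called different between genotypes. It stood at 33.2 and 34 RPKM in KO clones 66 and 69 with 4-OHT, against 82.7 and 88.6 RPKM without it. F3 in WT clones 15 and 54 stood at 48.7 and 44.3 RPKM with 4-OHT, against 63 and 51.7 RPKM without it. The 4 groups did not overlap. KO clones were the lowest with 4-OHT and the highest without it. F3 fell 2.54-fold in KO clones (log2 -1.35 ± 0.11, adjusted p = 4.79e-05). In WT clones it was 1.23-fold lower, which was not called (log2 -0.30 ± 0.11, adjusted p = 0.0502). That value sits at the threshold and was called with clone as a replicate block (adjusted p = 0.0194), with library size as the one scaling (0.0299), with the genes above 1% of reads left out of the totals (0.0242) and by limma-voom on reads (0.0264). It was also called without WT clone 54 without 4-OHT, where it was -0.44 (adjusted p = 0.00804). It moved the other way without WT clone 15 without 4-OHT (-0.16, adjusted p = 0.213) and without WT clone 54 with 4-OHT (-0.23, 0.215), and had an adjusted p of 0.118 with no filter and 0.125 in a fit of the compared libraries alone.

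The F3 response was lower in KO than in WT clones by 1.05 on the log2 scale (-1.05 ± 0.15, 95% interval -1.40 to -0.70, adjusted p = 0.00961). It was the 1 member called lower for this difference and none was called higher, beside 3.08% lower and 4.36% higher over all tested genes. The value was -1.07 without KO clone 69 with 4-OHT (adjusted p = 0.0513) and -1.00 without KO clone 69 without 4-OHT (0.0534). The KO level with 4-OHT was 1.38-fold lower than the WT level (log2 -0.47 ± 0.11, adjusted p = 0.0295). Without 4-OHT the KO level was 1.5-fold higher (log2 0.58 ± 0.11, adjusted p = 0.0256). The sizes of these differences held when 1 library was left out, at -0.40 to -0.54 with 4-OHT and 0.44 to 0.73 without it, while the adjusted p crossed the threshold. The first call was lost with any 1 of the 4 KO libraries or of the 2 WT libraries with 4-OHT left out, at adjusted p of 0.0588 to 0.153. The second call was lost with any 1 of the 4 KO libraries or WT clone 54 without 4-OHT left out, at 0.0571 to 0.171. With no filter on low values they had adjusted p of 0.0818 and 0.0732, and in a fit of the compared libraries alone the second had 0.0985.

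**Figure D4:**
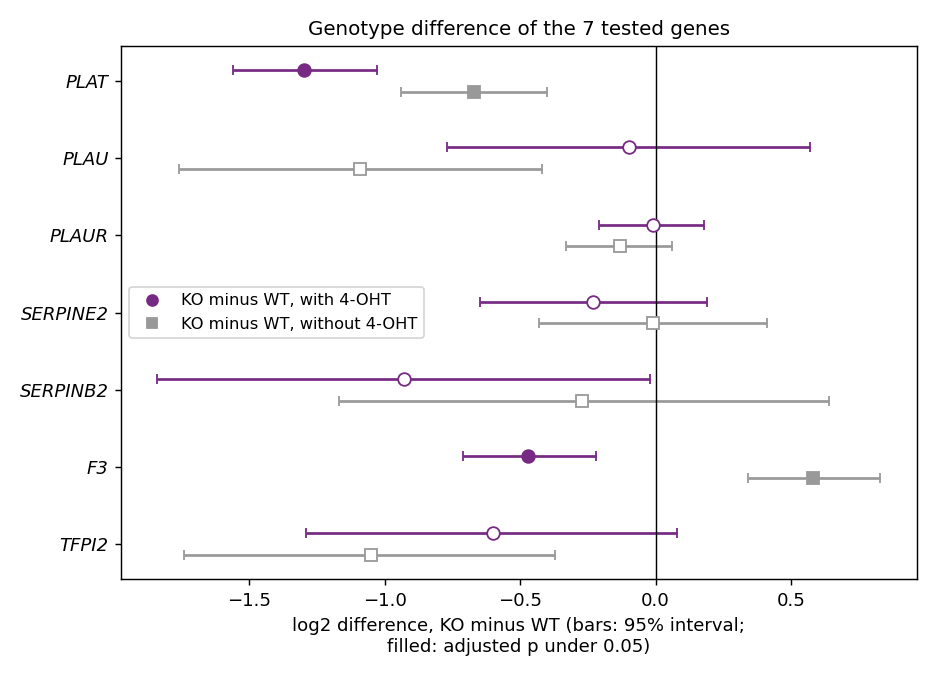
The genotype difference of each tested gene (log2, KO minus WT) with 4-OHT (purple circles) and without 4-OHT (grey squares), with 95% intervals and filled symbols at an adjusted p under 0.05. F3 is at -0.47 with 4-OHT and 0.58 without it, on opposite sides of 0, while PLAT is at -1.30 and -0.67.

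TFPI2 (GRCh38, chromosome 7, 93885396 to 93890991, minus strand) was measured on few reads. It had 4 and 6 reads in KO clones 66 and 69 with 4-OHT, against 22 and 11 reads without it. In WT clones 15 and 54 it had 12 and 9 reads with 4-OHT, against 40 and 34 reads without it. In RPKM these were 0.082 and 0.115 against 0.413 and 0.202 in KO clones, and 0.216 and 0.186 against 0.761 and 0.675 in WT clones. Each clone was lower with 4-OHT than without it. All 4 libraries without 4-OHT passed the 10-read filter and 1 of the 4 libraries with it did, so the gene was tested through the condition in which it was high. With that limit, the fitted difference is given as a description, log2 -1.44 ± 0.29 in WT clones (adjusted p = 0.00526, and 0.0332 with no filter). In KO clones it was -0.99 ± 0.29 (adjusted p = 0.0225), a call lost without KO clone 66 with 4-OHT (log2 -0.87, 0.108), KO clone 69 with 4-OHT (-1.11, 0.0536) or KO clone 66 without 4-OHT (-0.61, 0.133), and with no filter (0.102). KO minus WT was -0.60 ± 0.29 with 4-OHT (adjusted p = 0.216) and -1.05 ± 0.29 without it (adjusted p = 0.0763). That difference without 4-OHT was called by limma-voom (adjusted p = 0.0474) and with a pseudocount of 1 (0.042). The pseudocount of 1 is larger than every TFPI2 level, so the call with it says little about the gene. The responses differed by 0.45 ± 0.41 (adjusted p = 0.542).

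THBD (GRCh38, chromosome 20, 23045633 to 23049741, minus strand), the thrombin receptor of the protein C pathway, was at or near 0. It had 0 and 0 reads in KO clones 66 and 69 with 4-OHT, against 0 and 1 without it. WT clones 15 and 54 had 0 and 1 reads with 4-OHT, against 1 and 1 without it. At these depths a count of 3 reads corresponds to 0.029 to 0.0332 RPKM, so no difference between groups was detectable. It was not tested.

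Levels of different genes can be set side by side only with care. RPKM used the length of 1 listed transcript, or a length inferred from the steps between values for SERPINE2, F3 and TFPI2. For SERPINB2 that transcript has 717 bases and the longest coding one 2155, a ratio of 3.01, and for PLAUR the ratio is 1.28. For PLAT, PLAU and THBD the longest transcript was the one used. On this scale the order in KO clones with 4-OHT was PLAU (634 ± 37 RPKM, SD of 2 clones), PLAT (534 ± 77.1), SERPINE2 (108 ± 2.29), PLAUR (102 ± 0.401), SERPINB2 (36.2 ± 15.4), F3 (33.6 ± 0.534) and TFPI2 (0.0987 ± 0.0236). Of these neighbours, SERPINB2 and F3 overlapped between clones. In WT clones with 4-OHT PLAT came first (1310 ± 110), then PLAU (680 ± 63.9), SERPINE2 (126 ± 0.0138), PLAUR (103 ± 8.7), SERPINB2 (66.7 ± 14.7), F3 (46.5 ± 3.16) and TFPI2 (0.201 ± 0.0215). Without 4-OHT F3 led the 8 genes in KO clones (85.6 ± 4.15), and in WT clones F3 (57.4 ± 7.96) and SERPINE2 (57.3 ± 17.2) overlapped at the top.

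Other genes of the plasmin system were taken from a list of 28, of which 27 were in the table and 18 were tested. With 4-OHT 10 of the 18 were called higher and 6 lower in KO clones, beside 28.7% and 26.9% of all tested genes. In WT clones 9 were called higher and 6 lower, beside 25.2% and 23.7%. Their median log2 response was 0.57 in KO and 0.31 in WT clones, beside 0.00 and 0.00 over all tested genes. A2M, the broad protease trap alpha-2-macroglobulin, fell in both genotypes. It averaged 2.34 ± 0.328 RPKM in KO clones with 4-OHT, against 40.8 ± 4.93 RPKM without it (16.8-fold lower, adjusted p = 2.53e-06). In WT clones it averaged 2.08 ± 0.304 RPKM with 4-OHT, against 49.5 ± 1.01 RPKM without it (22.9-fold lower, adjusted p = 2.46e-06). HGF, a growth factor made as a precursor and distantly related to plasminogen, rose to 2.76 ± 0.0391 RPKM in KO clones with 4-OHT, against 0.0916 ± 0.051 RPKM without it (15.2-fold, adjusted p = 0.000308). In WT clones HGF averaged 5.14 ± 1.97 RPKM with 4-OHT, against 0.805 ± 0.559 RPKM without it (6.2-fold, adjusted p = 0.00272). The HGF level in KO clones without 4-OHT lay under the 0.1 RPKM added before logs, so differences that use it are a description. VTN, vitronectin, a matrix ligand of the urokinase receptor, was low throughout. It averaged 0.0424 ± 0.0599 RPKM in KO clones with 4-OHT, against 1.27 ± 0.0768 RPKM without it, and 0.0909 ± 0.129 RPKM in WT clones with 4-OHT, against 0.943 ± 0.149 RPKM without it. VTN is among the 6 called lower in each genotype, but its levels with 4-OHT were near 0 and it entered the test through the libraries without 4-OHT, so this is a description.

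Between genotypes 1 of the 18 plasmin system genes was higher and 3 lower in KO than in WT clones with 4-OHT, beside 6.7% and 7.65% of all tested genes. Without 4-OHT 0 were higher and 5 lower, beside 2.58% and 3.74%. Integrin chains that bind vitronectin or partner the urokinase receptor were among them. ITGB3 averaged 1.84 ± 0.316 RPKM in KO clones and 8.78 ± 0.638 RPKM in WT clones with 4-OHT (4.61-fold lower, adjusted p = 0.00286). Without 4-OHT it averaged 0.732 ± 0.127 RPKM in KO clones and 2.77 ± 0.448 RPKM in WT clones (3.45-fold lower, adjusted p = 0.00773). ITGA3 averaged 132 ± 3.42 RPKM in KO clones and 220 ± 12.2 RPKM in WT clones without 4-OHT (1.66-fold lower, adjusted p = 0.00709), and its responses differed by 0.47 ± 0.10 (adjusted p = 0.0367). HGF was 4.33-fold lower in KO clones without 4-OHT (0.0916 ± 0.051 against 0.805 ± 0.559 RPKM, adjusted p = 0.043), a description at this low KO level. With 4-OHT the serpin SERPINB8 was 1.34-fold lower in KO clones (12.3 ± 0.685 against 16.5 ± 0.847 RPKM, adjusted p = 0.0199). The plasminogen receptor PLGRKT was 1.29-fold higher (29.4 ± 0.168 RPKM in KO against 22.8 ± 0.505 RPKM in WT clones, adjusted p = 0.0239).

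Of 28 other coagulation genes, all in the table, 13 were tested. With 4-OHT 4 were called higher and 5 lower in KO clones, beside 28.7% and 26.9% of all tested genes. In WT clones 4 were called higher and 7 lower, beside 25.2% and 23.7%. Their median responses were -0.25 in KO and -0.31 in WT clones, beside 0.00 and 0.00 over all tested genes. F2RL1, the protease-activated receptor that tissue factor complexes can cleave, rose in both genotypes. It averaged 19.5 ± 0.9 RPKM in KO clones with 4-OHT, against 0.508 ± 0.00252 RPKM without it (32.2-fold, adjusted p = 9.08e-07). In WT clones it averaged 11.2 ± 0.882 RPKM with 4-OHT, against 0.608 ± 0.0712 RPKM without it (15.9-fold, adjusted p = 2.46e-06). F2RL1 was 1.74-fold higher in KO than in WT clones with 4-OHT (adjusted p = 0.011), and its responses differed by 1.01 ± 0.18 (adjusted p = 0.0207). F10, the protease activated by tissue factor with factor VII, fell 3.84-fold in KO clones (adjusted p = 0.00354) and 3.27-fold in WT clones (adjusted p = 0.00772). PROS1, the protein C cofactor protein S, fell 3.12-fold in KO clones (adjusted p = 4.62e-05) and 3.26-fold in WT clones (adjusted p = 5.81e-05). The thrombin receptor F2R was 1.46-fold lower in KO than in WT clones without 4-OHT (34.2 ± 1.2 against 50 ± 2.2 RPKM, adjusted p = 0.0109). The genotype counts over both lists depended on single libraries. The 5 genes called with 4-OHT became 1 without any 1 of the 4 libraries with 4-OHT and 8 without either WT library without it. The 6 called without 4-OHT became 0 without either KO library without it, and 3 without either KO library with 4-OHT or WT clone 54 without it. The 2 called for the difference of responses became 0 without any 1 of the KO libraries or of the WT libraries with 4-OHT, 4 without WT clone 15 without 4-OHT and 1 without WT clone 54 without it.

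Genes of AP-1, whose letters are printed above, were counted with the ETS family of transcription factors, as a list of 15 genes that were all tested. With 4-OHT 7 were called higher and 7 lower in KO clones, beside 28.7% and 26.9% of all tested genes. In WT clones 7 were called higher and 6 lower, beside 25.2% and 23.7%. The genes called higher were the same in both genotypes, FOSL1 and the ETS genes ETV1, ETV4, ETV5, ELK1, ELK3 and ETS2. Those called lower in both were FOS, FOSB, FOSL2, JUN, JUNB and JUND, with ATF3 also called lower in KO clones. ATF3 was low, at 0.235 ± 0.232 RPKM in KO clones with 4-OHT, against 0.789 ± 0.23 RPKM without it. Its SD with 4-OHT was close to its mean, so that call is a description. FOS averaged 44.3 ± 4.41 RPKM in KO clones and 11.5 ± 1.09 RPKM in WT clones with 4-OHT (3.82-fold higher, adjusted p = 0.00282). FOS fell 4.34-fold with 4-OHT in KO clones (adjusted p = 4.65e-05) and 15.8-fold in WT clones (11.5 ± 1.09 RPKM with 4-OHT, against 186 ± 46.2 RPKM without it, adjusted p = 6.49e-06), and its responses differed by 1.86 ± 0.23 (adjusted p = 0.00703). FOSB fell 7.27-fold in KO clones (adjusted p = 6.57e-05) and 9.18-fold in WT clones (adjusted p = 6.07e-05). FOSL1 rose 7.82-fold in KO clones (37.7 ± 7.47 RPKM with 4-OHT, against 4.7 ± 0.334 RPKM without it, adjusted p = 8.2e-05) and 4.94-fold in WT clones (adjusted p = 0.000374). JUN fell with 4-OHT, 1.57-fold in KO clones (adjusted p = 0.00276) and 2.69-fold in WT clones (adjusted p = 9.48e-05). Its level with 4-OHT was 1.6-fold higher in KO than in WT clones (adjusted p = 0.0141). The JUN responses differed by 0.78 ± 0.17 (adjusted p = 0.0374), a smaller fall in KO clones. Among ETS genes ETV1 averaged 6.76 ± 1.81 RPKM in KO clones with 4-OHT, against 0.068 ± 0.033 RPKM without it (40.5-fold, adjusted p = 7.87e-06). Its rise in WT clones was 14.5-fold (adjusted p = 3.65e-05). The ETV1 level in KO clones without 4-OHT lay under the 0.1 RPKM added before logs, so differences that use it are a description. ETV4 rose 10.4-fold in KO clones (adjusted p = 0.000112) and 5.8-fold in WT clones (adjusted p = 0.000607). ETS2 was 1.76-fold lower in KO than in WT clones with 4-OHT (adjusted p = 0.017). Without 4-OHT ETV1 was 3.01-fold lower in KO than in WT clones (0.068 ± 0.033 against 0.403 ± 0.0551 RPKM, adjusted p = 0.0189). JUND was 1.35-fold higher (adjusted p = 0.0453) and ELK3 1.29-fold higher (adjusted p = 0.0388) in KO than in WT clones without 4-OHT.

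Profiles over the 8 libraries were compared after each gene was centred on its own mean log2 value, by the root mean square difference. The nearest genes were sought among 12624 genes with a mean of at least 1 RPKM, a limit not applied to the members themselves. TFPI2 lay below it in every library, at 0.082 to 0.761 RPKM, so its distances are a description. Among the members PLAUR and SERPINE2 were nearest to each other (0.24), followed by F3 with TFPI2 (0.65) and PLAT with PLAU (0.66). PLAU and TFPI2 were farthest apart (3.54). The genes nearest to PLAT were IL37 (0.37), E2F7 (0.44) and IL1B (0.45). Those nearest to PLAU were G0S2 (0.34), MMP1 (0.37) and MC4R (0.40). PLAUR had NET1, AC011481.1 and CAPN2 at 0.08 each. SERPINE2 had GMIP (0.10), ABCC4 (0.10) and NUP50 (0.11). SERPINB2 had AMPD3 (0.31), MLLT11 (0.31) and TNFRSF21 (0.36). F3 had FNIP2 (0.06), PIGP (0.08) and CAMK2D (0.08), and TFPI2 had NBPF3 (0.24), MYLK-AS1 (0.26) and SYT11 (0.27). A small distance is reached more easily by genes that vary little, and the 8 libraries share their 4 clones.

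Markers of cell types were summed as a check of the labelled fibroblasts. All 13 fibroblast markers were tested, and their summed RPKM was 3530 to 3910 in KO clones with 4-OHT, against 4980 to 5130 without it. In WT clones it was 3490 to 3890 with 4-OHT, against 5500 to 5680 without it. Of 10 endothelial markers 5 were tested and 7 stayed under 1 RPKM in every library. Their sum was 6.66 to 6.87 in KO clones with 4-OHT, against 12.6 to 16.5 without it, and 8.97 to 9.28 in WT clones with 4-OHT, against 11.1 to 11.6 without it. Of 10 keratinocyte and epithelial markers 4 were tested and 7 stayed under 1 RPKM, with KRT5, KRT1, KRT14 and DSG3 at 0 reads in all libraries. Over the libraries KRT10 ranged from 4.03 to 6.9, KRT15 from 0.0482 to 7.37 and DSP from 1.76 to 3.93 RPKM. The sum of all 10 was 14.4 to 14.5 in KO clones with 4-OHT, against 9.18 to 10.4 without it. In WT clones the sum was 15.4 to 17.1 with 4-OHT, against 6.95 to 8.15 without it. Of 10 monocyte and macrophage markers 5 were tested and 7 stayed under 1 RPKM, with CD68 at 0 reads. CD14 was the highest, at 7.23 to 13.7 RPKM over the libraries. The sum of all 10 was 9.9 to 11.3 in KO clones with 4-OHT, against 9.42 to 10.6 without it. In WT clones the sum was 13.4 to 16.4 with 4-OHT, against 14.8 to 17.7 without it. Of 8 smooth muscle and pericyte markers 7 were tested. Their sum was 41.6 to 50.4 in KO clones with 4-OHT, against 37.7 to 39.7 without it, and 63.6 to 68.3 in WT clones with 4-OHT, against 42.7 to 51.5 without it. The fibroblast sum was lower with 4-OHT in both genotypes, while the activators rose. Its 13 markers did not all fall. In KO clones 4 were called higher and 9 lower with 4-OHT, beside 28.7% and 26.9% of all tested genes. In WT clones 2 were called higher and 8 lower, beside 25.2% and 23.7%. The part of these markers in the results above was not tested.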

How the data were processed

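Total RNA of 8 libraries was sequenced after column isolation, DNase treatment and a stranded kit, per the labels' protocols. The submitters' processing notes name STAR, featureCounts, edgeR and GRCh38. Versions, roles and strand setting are not given there, nor is whether reads were counted over whole genes. The authors deposited 1 table of RPKM values. Per the file headers, columns carry clone numbers, with a minus sign on 4 of them. The sign was read as 4-OHT negative, which no label spells out. The 45 rows of pseudoautosomal Y copies were left out. Multiplied by library total and GENCODE 29 transcript length, 100% of the nonzero values of genes listed there became whole reads within 0.1 read. Lengths of 6460 genes were inferred from the steps between their values.

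From these, RPKM was divided by TMM factors (0.9402 to 1.035) and genes were kept with a CPM of at least 0.425 (10 reads at the median library size) in 2 libraries and 15 reads in total. A model of the 4 group means over 8 libraries (4 residual degrees of freedom) was fitted to log2(RPKM + 0.1) by limma (version 3.58.1, R 4.3.3), with trend and robust moderation, two-sided, Benjamini-Hochberg adjusted over all genes tested. The code was tested on simulated data. The 5 contrasts were the 4-OHT response in each genotype, KO minus WT with and without 4-OHT, and the difference of the responses. Libraries of 1 clone are paired by origin, and the clone number served as a replicate block in an alternative. Over 16543 genes the deviations of same-clone libraries from their group means correlated at 0.00535 in KO and 0.309 in WT. Named genes were all 8 members, up to 3 called genes with the largest difference per list and contrast, and the 3 nearest profiles per tested member. The members and lists were chosen with earlier results of these data known. Alternatives covered scaling, pseudocount, filter, limma-voom on recovered reads, the libraries in the fit, the replicate block and leaving out each library. MRC2 and MCAM were not analysed here.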

Additional observations from a re-analysis of the deposited data

Results flagged for a closer look

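F3 met the criterion for a response that differs between genotypes. Its log2 response to 4-OHT was lower in KO than in WT clones by the tested difference of -1.05, with both KO clones above both WT clones without 4-OHT and below both with it. The cause was not tested.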

How the results depend on the processing

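Of the members' log2 differences under alternatives, 570 kept direction and side of the threshold, 25 lost the call, 16 gained it and 7 turned direction, all 7 uncalled values. PLAUR, KO minus WT with 4-OHT, became 0.04 with genes above 1% of reads left out of the totals and lay between -0.10 and 0.07 (without WT clone 54 with 4-OHT) with 1 library left out. SERPINE2, KO minus WT without 4-OHT, became 0.00 with median-of-ratios factors and lay between -0.32 and 0.30, being 0.06 without KO clone 69 and 0.30 without WT clone 54. The SERPINE2 difference of responses lay between -0.53 and 0.09, and SERPINB2, KO minus WT without 4-OHT, between -0.76 and 0.23, both highest without WT clone 15 without 4-OHT. Member counts moved as follows. Lower with 4-OHT in WT clones was 2 with library size, abundant genes left out, limma-voom or the replicate block, and 1 to 2 with 1 library left out. Lower in KO clones was 1 with no filter or at least 1 RPKM, which removed TFPI2, and 1 to 2 with 1 library left out. KO minus WT without 4-OHT gave 0 higher with no filter or the compared libraries alone (0 to 1 with 1 library left out), and 0 lower in those settings and 2 with a pseudocount of 1 or limma-voom (0 to 2). KO minus WT with 4-OHT gave 1 lower with no filter (1 to 2). The difference of responses gave 2 lower with library size, limma-voom or the replicate block (0 to 2), and 0 to 1 higher. The block changed no other member's call. With abundant genes left out, 1368 genes were higher and 970 lower in KO than WT clones with 4-OHT, beside 1109 and 1266. No setting moved the median of all genes by over 0.1. Depth limits TFPI2 and THBD. The cause of these changes was not tested.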
